A study of Mus musculus with 2 samples.

Results

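The 10 genes described here encode the contractile apparatus of smooth muscle and related cells: *Acta2*, *Tagln*, *Myl9*, *Mylk*, *Tpm1*, *Tpm2*, *Myh11*, *Cald1*, *Des* and *Actg2*. They were taken by symbol, and all 10 were present among the 31053 genes of both count matrices. The matrices hold single-cell RNA sequencing of whole lung from C57/B6 mice aged 2 to 4 months, with 1 library from normoxia (21% oxygen) and 1 library from mice kept for 3 weeks in hypoxia (10% oxygen). Lungs were dissociated enzymatically, and cells carrying CD45 (leukocytes) or CD326 (epithelium) were removed on beads, so shares of cell classes are those left by this depletion. No group carried a transgene or deletion, the lungs under hypoxia were those of 3 wild-type animals, the number for normoxia is not given in the sources used here, and with 1 library per condition no difference between normoxia and hypoxia has a replicate check and no p-value is given.

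Smooth muscle contracts when actin filaments slide along myosin. *Acta2* and *Actg2* encode the vascular and enteric smooth muscle actins, *Myh11* the smooth muscle myosin heavy chain and *Myl9* a regulatory light chain, which the kinase encoded by *Mylk* phosphorylates to start contraction. The tropomyosins *Tpm1* and *Tpm2* and caldesmon (*Cald1*) lie along the actin filament and regulate its contact with myosin, *Tagln* encodes the actin-binding protein SM22, and *Des* the intermediate filament protein desmin. In the lung these genes are best known from arterial and airway smooth muscle, from myofibroblasts and, in part, from pericytes, the mural cells of capillaries. *Mylk*, *Tpm1* and *Cald1* also make isoforms used outside muscle, and counts of transcript 3′ ends do not separate the isoforms. *Acta2* and *Actg2* are near-identical paralogs, so a small part of the reads of one could have been counted for the other.

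On the GRCm38 build *Acta2* at chr19:34241090-34255590, *Tagln* at chr9:45929619-45936058, *Tpm1* at chr9:67022590-67049406, *Tpm2* at chr4:43514711-43523765, *Myh11* at chr16:14194535-14291372 and *Actg2* at chr6:83512905-83536265 lie on the minus strand. On the plus strand lie *Myl9* at chr2:156775420-156781658, *Mylk* at chr16:34745210-35002420, *Cald1* at chr6:34598500-34775473 and *Des* at chr1:75360329-75368579. *Tagln* overlaps *Pcsk7*, which lies on the other strand. Many smooth muscle genes are known targets of serum response factor, which binds the CArG box. Promoter windows from RefSeq (GRCm38.p6), from 250 bases before to 50 bases after the transcript start, were found for 7 of the 10 genes, and none was used for *Tagln*, *Myh11* or *Actg2*. The strict CArG box, with nothing but A or T between its outer CC and GG, was in 535 of 32851 mouse windows of the same length (1.63%), on either strand. Among the 8 windows of the members it was in 1, that of *Myl9*, where it begins 161 bases before the start. The strict pattern leaves out similar stretches with 1 other base inside, such as ccctatatgg and ccttgtttgg in the *Acta2* window. The motif TATAAA was in 4473 windows (13.6%), counting both strands, and in 1 window of the members, that of *Cald1*. The *Myl9* window, chr2:156775214-156775513 on the plus strand, is shown with the CArG box in capitals, and the *Acta2* window, chr19:34255324-34255623 on the minus strand, is shown because *Acta2* had the narrowest cell distribution of the members that were well counted.
Myl9: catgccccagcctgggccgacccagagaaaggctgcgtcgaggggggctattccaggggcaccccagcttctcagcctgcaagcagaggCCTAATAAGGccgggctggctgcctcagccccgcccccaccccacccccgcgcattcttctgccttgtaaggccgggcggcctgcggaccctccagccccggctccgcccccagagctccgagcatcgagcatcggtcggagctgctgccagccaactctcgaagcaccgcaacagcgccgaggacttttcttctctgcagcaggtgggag
Acta2: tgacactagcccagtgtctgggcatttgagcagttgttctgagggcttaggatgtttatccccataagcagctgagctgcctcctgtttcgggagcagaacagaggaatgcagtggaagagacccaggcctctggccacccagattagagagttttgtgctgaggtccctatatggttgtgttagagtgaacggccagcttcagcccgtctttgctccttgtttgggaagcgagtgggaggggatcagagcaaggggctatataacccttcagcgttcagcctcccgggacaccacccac

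Transcripts were counted by unique molecular identifiers (UMIs) at their 3′ ends, so levels of different genes compare molecules without scaling by length. The normoxia library held 2223 cells and 7630683 UMIs and the hypoxia library 809 cells and 2685345 UMIs, and 1 barcode was shared. Cells of 200 to 4000 detected genes whose mitochondrial UMIs did not exceed 5% passed the filters, 1348 in normoxia and 689 in hypoxia, at medians of 3453 and 2224 UMIs a cell. The 10 genes had 5359 UMIs in the kept normoxia cells and 1565 in the kept hypoxia cells. Classes were named from markers after clustering without the 10 genes and without 44 related genes, so none of the 10 genes could define its own class. Of the related genes, *Cnn1*, *Lmod1*, *Pln*, *Synpo2* and *Kcnmb1* were in the marker list for smooth muscle cells, a name that no cluster took. A level is the UMIs of a gene summed over a class per 1000000 UMIs of that class (CPM), with an exact Poisson 95% interval. For ratios the 95% interval is the exact conditional binomial one and for shares of cells the Clopper-Pearson one, and every interval covers counting error only.

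The classes of main interest in normoxia were 16 *Hhip*-positive myofibroblast-like cells, 36 pericyte-like cells, 189 fibroblast-like cells and 892 endothelial cell (EC)-like cells. In hypoxia the same classes held 0, 1, 34 and 607 cells. The 0 of 689 hypoxia cells in the *Hhip*-positive class allows a share of up to 0.534% against 1.19% in normoxia, and the depletion step can set these shares. No cluster was named for smooth muscle cells (SMCs), and the *Hhip*-positive cells, which had UMIs of all 8 markers of their list, had UMIs of 4 of 8 SMC markers, 28 in all (284 CPM), among them 13 of *Lmod1*, 12 of *Synpo2* and 2 of *Pln*, and none of *Cnn1*, *Mcam*, *Nrip2* and *Kcnmb1*. They also had no *Pdgfra* UMI. No cluster was named arterial, so arterial EC are not described as a class.

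The sum of the 10 genes was highest in *Hhip*-positive myofibroblast-like cells of normoxia, at 4558 CPM (interval 4146 to 4999, 450 UMIs). Pericyte-like cells had 3553 CPM (interval 3250 to 3876, 507 UMIs), and the ratio of the former to the latter was 1.28 (interval 1.13 to 1.46). The *Hhip*-positive value leans on its richest cell, which held 115 of the 450 UMIs, and was 3847 CPM without it (interval 3446 to 4282), overlapping the pericyte-like interval. Platelet-like cells followed at 3433 CPM (161 UMIs), and their level and the pericyte-like one did not differ beyond counting error at a ratio of 1.04 (interval 0.865 to 1.24). The fibroblast-like class was at 2446 CPM (interval 2341 to 2556) and alveolar type 1 (AT1)-like cells 987 CPM. EC-like cells had 546 CPM (interval 522 to 570) and leukocytes 49.8 CPM from 7 UMIs.

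**Figure D1:**
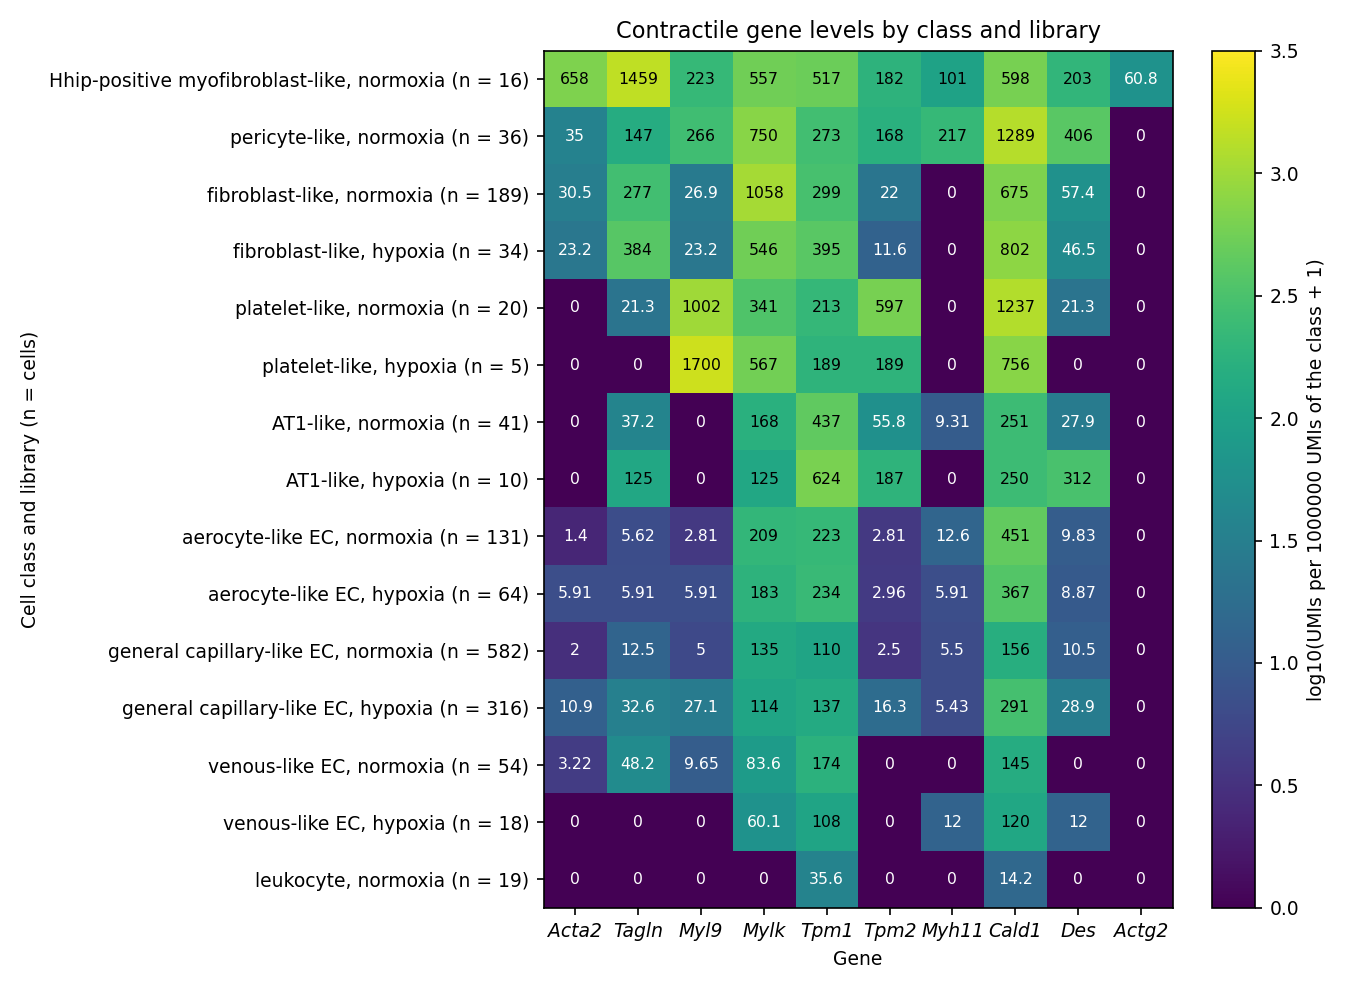
Levels of the 10 contractile genes (x axis) in each cell class and library (y axis, with the number of cells), printed as UMIs per 1000000 UMIs of the class and coloured by log10(level + 1). *Acta2* reached 658 CPM in the *Hhip*-positive cells and at most 35.0 CPM in any other class shown, whereas *Mylk*, *Tpm1* and *Cald1* were counted in every EC row.

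*Acta2*, the vascular smooth muscle actin, was highest in the *Hhip*-positive cells. It had 65 UMIs there, 658 CPM (interval 508 to 839), in 13 of 16 cells. Pericyte-like cells had 5 UMIs, 35.0 CPM (interval 11.4 to 81.8), 4 of them in 1 cell. Fibroblast-like cells had 25 UMIs, 30.5 CPM, and 16 of these came from a single cell with 765 UMIs in all, so that the level without it was 11.0 CPM (interval 5.03 to 20.9). EC-like cells had 7 UMIs among 892 cells, 1.92 CPM. The 16 *Hhip*-positive cells thus held 62.5% of all *Acta2* UMIs of the kept normoxia cells (interval 52.5 to 71.8), although they were 1.19% of the cells. Their level was 18.8 times that of pericyte-like cells (interval 7.65 to 59.8), and 21.6 times (interval 13.4 to 35.7) that of the fibroblast-like class.

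*Actg2*, the enteric actin, had 6 UMIs in the kept normoxia cells. All 6 lay in 3 of the 16 *Hhip*-positive cells, 4 of them in 1 cell. No *Actg2* UMI was found in hypoxia, where 3 UMIs over the EC-like class would have been 1.43 CPM.

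*Tagln*, which encodes SM22, was also highest in the *Hhip*-positive cells, at 1459 CPM (interval 1230 to 1717, 13 of 16 cells). Fibroblast-like cells came next, at 277 CPM (interval 242 to 316) in 65 of 189 cells. Pericyte-like cells had 147 CPM (interval 91.1 to 225) and EC-like cells 17.0 CPM. The fibroblast-like cells held 49.3% of all *Tagln* UMIs of normoxia. Within fibroblasts it lay in the alveolar fibroblast-like clusters, with 324 CPM (224 UMIs), against 23.3 CPM (3 UMIs) in the adventitial fibroblast-like cluster.

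The myosin genes divided differently. *Myh11*, the smooth muscle heavy chain, was highest in pericyte-like cells at 217 CPM (interval 148 to 308, 16 of 36 cells). The *Hhip*-positive cells had 101 CPM (interval 48.6 to 186) from 10 UMIs, 5 of them in 1 cell, and 54.0 CPM without that cell. Fibroblast-like cells had no *Myh11* UMI among 819128 UMIs, which allows up to 3.66 CPM at a floor of 3 UMIs over the class. EC-like cells had 21 *Myh11* UMIs, 5.75 CPM. Pericyte-like cells held 47.7% of the *Myh11* UMIs of normoxia.

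*Myl9*, the regulatory light chain, did not differ beyond counting error between pericyte-like and *Hhip*-positive cells. It had 266 CPM (interval 188 to 366) in the former and 223 CPM (interval 140 to 337) in the latter, a ratio of 1.20 (interval 0.689 to 2.12). It was much lower in fibroblast-like cells, at 26.9 CPM (22 UMIs), and 14 of those UMIs came from the adventitial fibroblast-like cluster (109 CPM, interval 59.4 to 182) against 8 in the alveolar ones (11.6 CPM). Platelet-like cells exceeded all of them at 1002 CPM (interval 736 to 1333). Platelets are known to change shape through the same light chain and its kinase.

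*Mylk*, the light chain kinase, followed another order, with 1058 CPM (interval 989 to 1131) in fibroblast-like, 750 CPM (interval 615 to 906) in pericyte-like and 557 CPM (interval 420 to 725) in *Hhip*-positive cells. Fibroblast-like and pericyte-like cells differed at a ratio of 1.41 (interval 1.15 to 1.74), and the interval of the next step, 1.35 (0.964 to 1.90), included 1. The fibroblast-like clusters were not alike. The one led by *Fat3* had 1227 CPM over both libraries (interval 1139 to 1320). The one led by *Mfap4* had 592 CPM in normoxia and the adventitial one 742 CPM over both libraries, both below the pericyte-like level. Fibroblast-like cells held 53.1% of the *Mylk* UMIs of normoxia. In fibroblast-like cells 867 UMIs of the kinase were counted against 22 of the light chain gene *Myl9*, whereas in platelet-like cells *Myl9* was the higher, as 47 against 16 UMIs. The non-muscle light chains *Myl12a* and *Myl12b* had 299 and 176 UMIs in fibroblast-like cells and 35 and 33 in platelet-like cells.

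Of the thin filament regulators, *Cald1* and *Tpm1* were counted in every class shown. *Cald1* (caldesmon) was highest in pericyte-like cells at 1289 CPM (interval 1110 to 1490) and in platelet-like cells at 1237 CPM, which did not differ beyond counting error. Fibroblast-like cells had 675 CPM (interval 620 to 734) and *Hhip*-positive cells 598 CPM (interval 455 to 771), again not apart. *Cald1* had a UMI in every one of the 16 *Hhip*-positive cells and in 32 of 36 pericyte-like cells. Because EC-like cells were so many, they held 46.7% of all *Cald1* UMIs of normoxia at a level of 218 CPM (interval 203 to 234).

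*Tpm1* ran from 517 CPM (interval 385 to 679) in *Hhip*-positive cells through 437 CPM in AT1-like, 299 CPM in fibroblast-like and 273 CPM in pericyte-like cells to 140 CPM (interval 128 to 153) in EC-like cells. The 7 alveolar type 2 (AT2)-like cells of normoxia, too few to be ranked with the other classes, had 780 CPM (interval 569 to 1043, 45 UMIs). *Tpm2* kept to fewer classes, with 182 CPM (interval 108 to 288) in *Hhip*-positive and 168 CPM (interval 108 to 250) in pericyte-like cells against 22.0 CPM in fibroblast-like and 1.92 CPM in EC-like cells. Platelet-like cells had 597 CPM of *Tpm2*, from 28 UMIs of which 11 lay in 1 cell. The level without that cell was 401 CPM.

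*Des* (desmin), like *Myh11*, was highest in pericyte-like and next in *Hhip*-positive cells, with 406 CPM (interval 309 to 525) in pericyte-like cells, 203 CPM (interval 124 to 313) in *Hhip*-positive cells, 57.4 CPM in fibroblast-like cells and 8.21 CPM in EC-like cells. The first step was a ratio of 2.01 (interval 1.19 to 3.52). *Acta2*, *Tagln* and *Tpm1* were higher in *Hhip*-positive than in pericyte-like cells, by 18.8, 9.91 and 1.89 times. *Myh11*, *Cald1* and *Des* were lower in *Hhip*-positive cells, at 0.466, 0.463 and 0.498 of the pericyte-like level. All of these ratios had intervals that exclude 1. For *Tpm1*, 15 of the 51 *Hhip*-positive UMIs lay in 1 cell. The level without it was 413 CPM (interval 290 to 572), overlapping the pericyte-like interval (194 to 374). *Acta2* and *Tagln* without that cell were 505 and 1137 CPM. The ratios of *Myl9*, *Mylk* and *Tpm2* had intervals that included 1.

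The make-up of the sum differed accordingly. In *Hhip*-positive cells *Tagln* was 32.0% and *Acta2* 14.4% of the contractile UMIs. In pericyte-like cells *Cald1* (36.3%), *Mylk* (21.1%) and *Des* (11.4%) led, and *Acta2* was 0.986%. In fibroblast-like cells *Mylk* (43.3%) and *Cald1* (27.6%) made up most of it. In EC-like cells *Cald1* (39.9%), *Mylk* (27.1%) and *Tpm1* (25.7%) did, and each of the other 7 genes gave at most 3.11%.

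**Figure D2:**
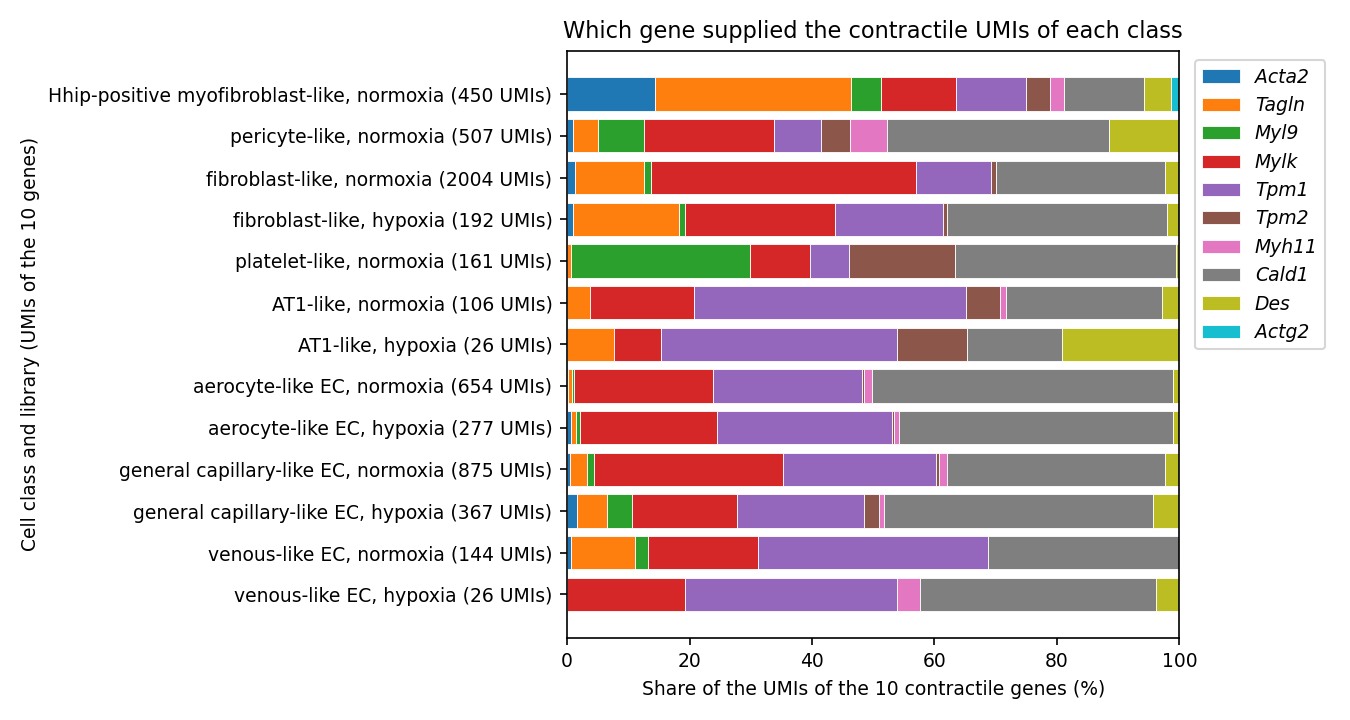
Share of the UMIs of the 10 genes contributed by each gene (x axis, %), for each class and library with its number of contractile UMIs (y axis). *Acta2* and *Tagln* filled 14.4% and 32.0% of the *Hhip*-positive bar, and *Mylk*, *Tpm1* and *Cald1* filled most of every EC bar.

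Cell by cell, the contractile level of the 16 *Hhip*-positive cells ran from 1375 to 9876 CPM with a median of 3601 CPM, from 8 to 115 UMIs. Both *Acta2* and *Tagln* were found in 11 of them and at least 1 of these genes in 15. Every cell had UMIs of at least 5 of the 10 genes, with a median of 7. The 36 pericyte-like cells ran from 0 to 9631 CPM with a median of 3496 CPM, so the ranges of both classes overlapped widely. In them *Myh11* and *Des* occurred together in 12 cells, and *Acta2* and *Tagln* in 1. At least 5 of the genes were found in 20 of 36 pericyte-like cells, in 17 of 189 fibroblast-like cells (8.99%) and in 8 of 892 EC-like cells (0.897%). The median depth was 5984 UMIs a cell in *Hhip*-positive, 4158 in pericyte-like, 3409 in fibroblast-like and 3834 in EC-like cells, and the part of depth in these counts was not tested.

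**Figure D3:**
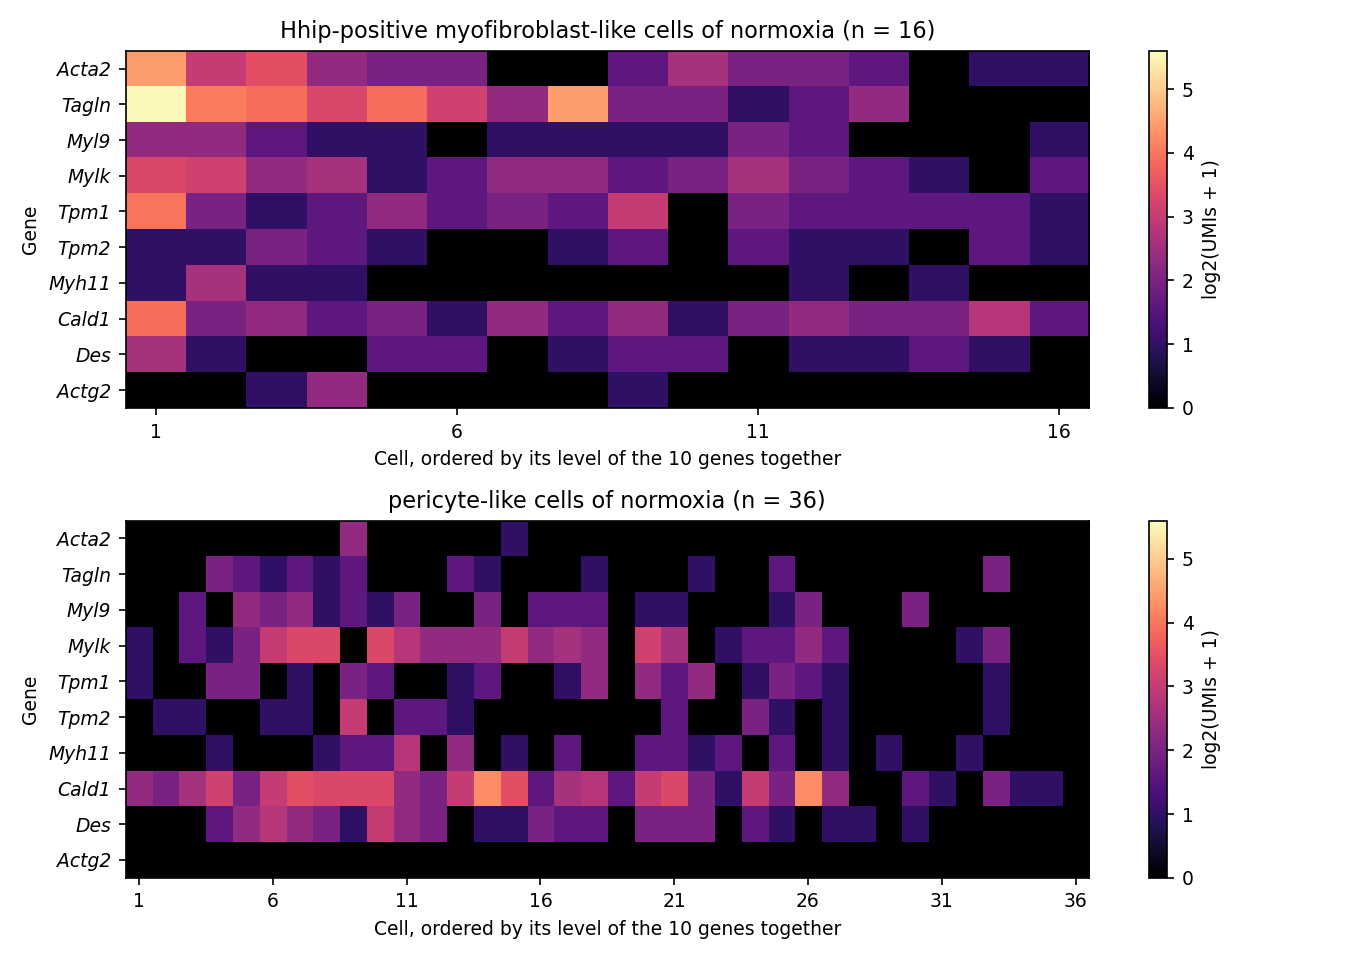
UMIs of each gene (y axis) in each cell (x axis, ordered from the highest to the lowest contractile level), coloured by log2(UMIs + 1), for the *Hhip*-positive myofibroblast-like cells (top) and the pericyte-like cells (bottom) of normoxia. The *Acta2* and *Tagln* rows are filled in most of the 16 cells of the upper panel, and the *Acta2* row is filled in 2 of the 36 cells of the lower one.

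After each cell was thinned to 1000 UMIs, *Cald1* was found in 62.5% of *Hhip*-positive, 62.1% of pericyte-like, 53.3% of fibroblast-like and 15.7% of EC-like cells of normoxia. *Acta2* was found in 7 of 16 *Hhip*-positive cells (43.8%, interval 19.8 to 70.1), in 0 of 29 pericyte-like cells, in 1 of 137 fibroblast-like cells and in 4 of 826 EC-like cells (0.484%). Leukocytes, which should lack these genes, had none of 18 cells with a UMI of any member other than *Tpm1*, found in 2. Free RNA gives such UMIs in cells that do not express a gene, and the EC-like shares of *Acta2*, *Tagln*, *Myl9*, *Tpm2*, *Myh11* and *Des* in normoxia, each under 1% after thinning, cannot be told from such background with 18 leukocytes. The share for *Cald1* differed between EC subtypes beyond counting error.

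Aerocyte-like EC, the large capillary cells of gas exchange, had more of the 10 genes than general capillary-like EC. In normoxia the sum was 918 CPM against 438 CPM, a ratio of 2.10 (interval 1.89 to 2.33). The difference lay in *Cald1*, with 451 CPM in aerocyte-like against 156 CPM in general capillary-like EC (ratio 2.90, interval 2.47 to 3.40), *Tpm1*, with 223 against 110 CPM (ratio 2.04, interval 1.65 to 2.51), and *Mylk*, with 209 against 135 CPM (ratio 1.56, interval 1.26 to 1.91). The thinned shares for *Cald1*, 32.5% (interval 24.0 to 41.9) and 12.7% (interval 10.0 to 15.9), had the same order. For *Acta2*, *Tagln*, *Myl9*, *Tpm2*, *Myh11* and *Des* the intervals of the ratio included 1.

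Venous-like EC of normoxia had a sum of 463 CPM, with all cells not apart from general capillary-like EC at a ratio of 1.06 (interval 0.881 to 1.26). A single venous-like cell held 40 of the 144 UMIs. Without it the sum was 340 CPM (interval 278 to 412), against 438 CPM in general capillary-like EC. Venous-like EC had less *Mylk*, with 83.6 CPM (ratio 0.622, interval 0.399 to 0.931). Their *Tpm1* level was 174 CPM and their *Tagln* level 48.2 CPM, but 1 cell held 18 of 54 *Tpm1* UMIs and 10 of 15 *Tagln* UMIs, and without it the levels were 118 and 16.3 CPM. *Tagln* behaved likewise across all EC-like cells, where 62 UMIs lay in 28 cells and 14 of them in 1 cell.

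Fibroblast-like cells of both libraries were counted deeply enough to compare 7 of the 10 genes, those with at least 20 UMIs in the class over both libraries. The sum was 2446 CPM in normoxia against 2232 CPM under hypoxia, at a ratio of 0.912 (0.783 to 1.06). *Mylk* was 1058 CPM in normoxia against 546 CPM under hypoxia, at a ratio of 0.516 (0.376 to 0.692). *Tagln* was 277 and 384 CPM (ratio 1.38, interval 0.930 to 2.00), *Tpm1* 299 and 395 CPM (ratio 1.32, interval 0.895 to 1.90) and *Cald1* 675 and 802 CPM (ratio 1.19, interval 0.911 to 1.53), all with intervals that include 1. Scaled by the median ratio over genes in place of the total, every ratio of this class was lower by 0.44 on the log2 scale. *Tpm1* (0.975) and *Cald1* (0.877) then lay below 1, *Mylk* was 0.381 and the sum 0.673 (interval 0.577 to 0.781). That median was taken over genes with at least 20 UMIs in each library, a bar harder to reach with the 86031 hypoxia UMIs. The median over all 6311 genes compared, -0.19 on the log2 scale, would move the ratios the other way, so the shift depends on the genes used. *Acta2* and *Myl9* had 2 hypoxia UMIs each and *Des* 4, which is too few to show a difference of this size. None of the 7 genes was past 2-fold either way, against a background over 6311 genes of 8.68% at least 2-fold higher and 25.4% at least 2-fold lower in hypoxia. The 34 hypoxia cells held 86031 UMIs in all. The median log2 ratio was -0.21 for the 7 genes and -0.19 for all 6311.

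The *Mylk* difference depended on which fibroblasts were compared. The *Fat3*-led cluster, with 1227 CPM of *Mylk* over both libraries, held 79 normoxia and 2 hypoxia cells. Of the 34 hypoxia cells 31 lay in the *Mfap4*-led cluster, which held 95 of the 189 normoxia cells and had a median of 1072 UMIs a cell. Within the *Mfap4*-led cluster *Mylk* was 592 CPM in normoxia against 411 CPM under hypoxia, at a ratio of 0.694 (0.426 to 1.10). With cells of up to 10% mitochondrial UMIs the ratio over all fibroblast-like cells was 0.804 (interval 0.606 to 1.05) and that of the sum 1.20 (interval 1.04 to 1.39). Markers of other cells moved with the library in this class. EC markers summed to 422 CPM in normoxia and 2662 CPM in hypoxia with all 9 counted in both, airway epithelial markers to 116 and 814 CPM (2 and 1 of 4 counted) and AT2 markers to 150 and 442 CPM (5 and 4 of 6 counted), and their part in the result was not tested.

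In EC-like cells the sum was 546 CPM in normoxia against 598 CPM under hypoxia, at a ratio of 1.10 (1.02 to 1.18), and 1.05 (0.981 to 1.13) with median-ratio scaling. Its parts went different ways. *Cald1* was 218 CPM in normoxia against 286 CPM under hypoxia, at a ratio of 1.31 (1.18 to 1.46). *Mylk* was 148 and 105 CPM, a ratio of 0.710 (interval 0.604 to 0.832). *Tpm1* was 140 and 158 CPM, a ratio of 1.13 (interval 0.980 to 1.30). For *Tagln*, *Myl9*, *Myh11* and *Des*, with 62, 18, 21 and 30 normoxia UMIs, the ratios were 0.816, 1.94, 0.581 and 1.57, all with intervals that include 1. None of the 7 genes compared was past 2-fold, against 3.01% of 10505 genes higher and 5.89% lower. The *Ntrk2*-led EC cluster held 4 normoxia and 197 hypoxia cells. Within the *Socs3*-, *Gm26917*- and *Cenpb*-led EC clusters, which held both libraries, the *Cald1* ratio was 1.17, 1.90 and 2.12. Within the *Ednrb*-, *Slc6a2*- and *AW112010*-led ones it was 0.837, 0.830 and 0.537. All but 1.90 and 2.12 had intervals that include 1. *Mylk* ratios in these clusters ran from 0.540 to 0.886, all with intervals that include 1.

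Markers of other cells were present at low level in EC-like cells. The 11 pericyte markers summed to 93.6 CPM in normoxia and 70.1 CPM in hypoxia, with *Cspg4* at 0 in hypoxia, and the 7 fibroblast markers to 78.3 and 38.2 CPM. Airway epithelial transcripts went the other way, at 300 CPM in normoxia and 1217 CPM in hypoxia for a list of 4 genes, and their part in the result was not tested. In the 748 normoxia and 538 hypoxia EC-like cells without a UMI of 10 mural and fibroblast markers, the ratio of *Cald1* was 1.39 (interval 1.24 to 1.57) and that of *Mylk* 0.828 (interval 0.693 to 0.987). Both ratios kept their side of 1 in these cells. In the 144 normoxia and 69 hypoxia EC-like cells with such a UMI, *Cald1* was 1.06 (interval 0.798 to 1.40) and *Mylk* 0.438 (interval 0.276 to 0.670). In aerocyte-like EC without such a UMI the *Mylk* ratio was 1.09 (interval 0.776 to 1.53). The part of cells bearing these markers in the *Mylk* result was not tested.

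**Figure D4:**
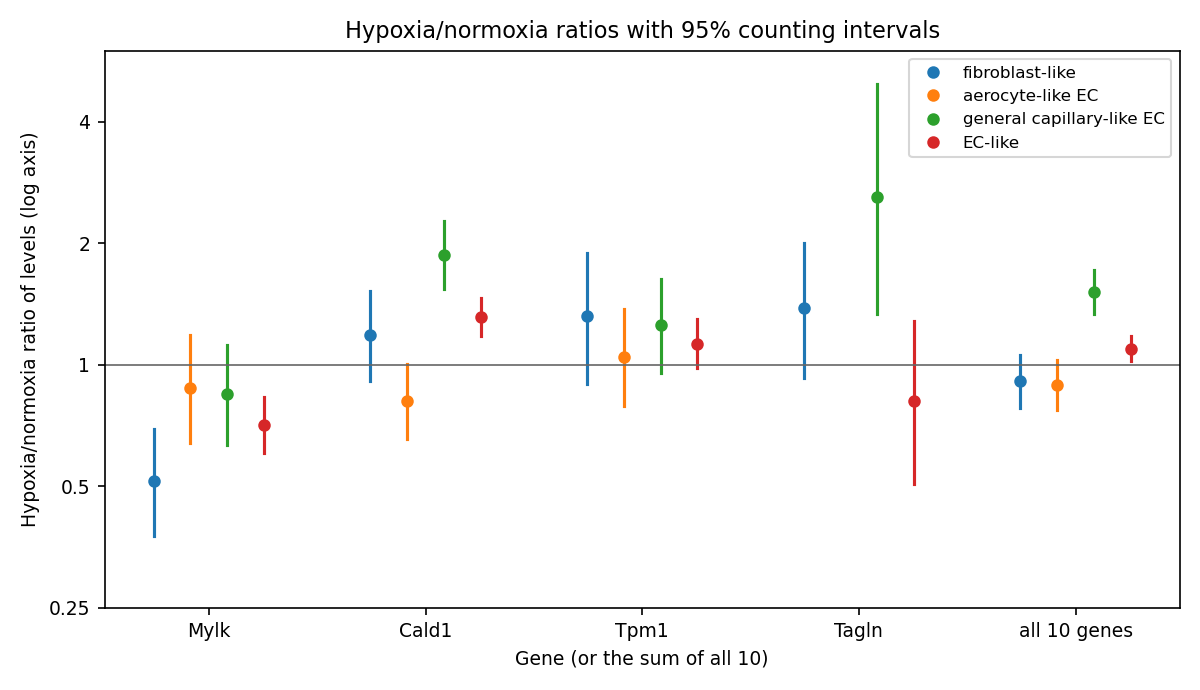
Hypoxia/normoxia ratios of levels (y axis, log scale) for *Mylk*, *Cald1*, *Tpm1*, *Tagln* and the sum of the 10 genes (x axis) in fibroblast-like, aerocyte-like, general capillary-like and all EC-like cells, with 95% counting intervals as bars. The *Mylk* points lie below 1 in each class, and the *Cald1* points of aerocyte-like (0.813) and general capillary-like EC (1.87) lie on opposite sides of 1. The *Cald1* interval of aerocyte-like EC includes 1.

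The EC subtypes did not share the ratio of *Cald1*. In general capillary-like EC it was 156 CPM in normoxia against 291 CPM under hypoxia, at a ratio of 1.87 (1.54 to 2.27). In aerocyte-like EC it was 451 and 367 CPM, a ratio of 0.813 (interval 0.656 to 1.00), and this interval includes 1. After thinning, the share of cells with a *Cald1* UMI was 12.7% (interval 10.0 to 15.9) and 25.7% (interval 19.9 to 32.2) in general capillary-like EC and 32.5% and 30.4% in aerocyte-like EC. Thinning left out 48 of 582 and 106 of 316 shallower cells of the former and 17 of 131 and 18 of 64 of the latter, and the unthinned shares were 31.8% and 30.1%, and 70.2% and 60.9%. The difference between the subtypes has no replicate and was not tested.

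General capillary-like EC also had more *Tagln* in hypoxia (12.5 and 32.6 CPM, from 25 and 18 UMIs), more *Myl9* (5.00 and 27.1 CPM, from 10 and 15 UMIs) and more *Des* (10.5 and 28.9 CPM, from 21 and 16 UMIs), at ratios of 2.60, 5.42 and 2.76. After thinning, the share of cells with a UMI was 0.749% and 3.33% for *Tagln*, 0.375% and 2.86% for *Myl9* and 0.936% and 0.952% for *Des*, so the *Des* order is not borne out by its shares. With no mitochondrial limit the ratio of *Myl9* was 1.60 (interval 0.697 to 3.69) and that of *Des* 1.19 (interval 0.664 to 2.10), and over all alternatives the intervals excluded 1 in 5 of 9 for *Myl9* and in 7 of 12 for *Des*. *Tagln*, *Myl9* and *Des*, 3 of the 6 genes compared, were past 2-fold, against 4.33% of 8963 genes higher and 8.6% lower. The median log2 ratio of the 6 was 1.14, against -0.02 for all 8963. *Myl9*, with 10 normoxia UMIs, reached the 20 UMIs needed only through its 15 hypoxia UMIs. Its place among the 6 thus rests on the library where it was higher, and neither the count nor the median is read further. *Mylk* (ratio 0.847, interval 0.633 to 1.12) and *Tpm1* (ratio 1.26, interval 0.954 to 1.64) had intervals that include 1. The class was not made of the same clusters in both libraries. Normoxia cells lay mostly in those led by *Socs3*, *Ier3* and *Hey1*, at a median of 3299 UMIs per cell. Hypoxia cells lay mostly in those led by *Gm26917*, *Cenpb* and *Gm26870*, at a median of 1350 UMIs. The *Gm26870*-led cluster held 5 normoxia and 126 of the 316 hypoxia cells. *Ntrk2*, *Cd74* and *Cdk19* were among its leading genes, as in the *Ntrk2*-led EC cluster outside the class, and its part in these ratios was not tested. Within the *Gm26917*-led and *Cenpb*-led clusters, which held cells of both libraries, the *Cald1* ratio was 1.90 (interval 1.14 to 3.30) and 2.12 (interval 1.11 to 4.32). Within the *Socs3*-led cluster it was 1.17 (interval 0.722 to 1.81). The *Tagln* ratio in the same clusters was 0.567, 1.84 and 0.987. Every interval for *Tagln*, *Myl9* and *Des* within these clusters included 1, from few UMIs. The *Cenpb*-led cluster held 8, 5 and 8 hypoxia UMIs of these genes. The *Gm26870*-led cluster held 7, 7 and 3 over both libraries, and the medians of these clusters were 998 and 986 UMIs a cell. With 3 leukocytes in hypoxia such UMIs cannot be told from free RNA, whose part was not tested. When the *Mecom*-led and *Ntrk2*-led EC clusters, which took no subtype name, were added to the class, the sum had a ratio of 1.26 (interval 1.16 to 1.38) and *Tagln* 0.974, on the other side of 1.

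In aerocyte-like EC 3 genes were compared and none was past 2-fold, against 3.65% of 6468 genes higher and 5.89% lower. *Mylk* was 209 and 183 CPM (ratio 0.876, interval 0.641 to 1.19) and *Tpm1* 223 and 234 CPM (ratio 1.05, interval 0.789 to 1.38). The sum was 918 and 819 CPM, a ratio of 0.892 (interval 0.772 to 1.03). Venous-like EC, with 18 hypoxia cells and 26 contractile UMIs in them, had a sum of 463 and 312 CPM, a ratio of 0.674 (interval 0.426 to 1.03). Pericyte-like cells had a single hypoxia cell, so no ratio is read for them here.

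A list of 46 other genes of contraction and the actin cytoskeleton was set beside the members, of which 44 were in the matrices. In normoxia 38 of them had enough UMIs to place among the 4 main classes, by level alone and whatever the counting error. The highest level was in pericyte-like cells for 13, among them *Ppp1r14a*, an inhibitor of myosin phosphatase, with 1374 CPM there and 826 CPM in fibroblast-like cells, and *Synpo2* with 196 CPM. It was in *Hhip*-positive cells for 9, among them *Lmod1* (leiomodin, 132 CPM), *Pdlim3* (223 CPM) and *Lpp* (648 CPM). It was in EC-like cells for 12, such as the non-muscle actin *Actb* with 4755 CPM and the non-muscle light chain *Myl12a* with 571 CPM. Pericyte-like cells had 4611 CPM of *Actb* (interval 4265 to 4977) and 540 CPM of *Myl12a* (interval 426 to 674), intervals that include the EC-like levels. The highest level was in fibroblast-like cells for 4, such as the non-muscle heavy chain *Myh10* with 449 CPM. *Myocd*, the cofactor that drives smooth muscle genes, had 4 UMIs in *Hhip*-positive cells and 0 in pericyte-like, fibroblast-like and EC-like cells of normoxia. *Cnn1* (calponin) had 3 UMIs in fibroblast-like cells, all in the 765-UMI cell that held 16 *Acta2* UMIs.

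Of this list 32 genes were compared between the libraries in fibroblast-like cells, and 7 were at least 2-fold higher in hypoxia and 3 at least 2-fold lower. These are 21.9% and 9.38% of the list, beside 8.68% and 25.4% over all genes. The lower ones were *Srf* (26 and 0 UMIs, with an interval that includes 1), *Cacna1c* (39 and 0 UMIs) and *Ppp1r12b* (72 and 3 UMIs). The higher ones included the non-muscle myosin chains *Myh9* (114 and 395 CPM, ratio 3.48, interval 2.28 to 5.21), *Myl6* (ratio 2.14), *Myl12a* (ratio 2.17) and *Myl12b* (ratio 2.27). With median-ratio scaling *Myl6*, *Myl12a* and *Myl12b* lay under 2-fold and *Myh9* above it. In normoxia each of these chains was higher in EC-like than in fibroblast-like cells, *Myh9* at 476 against 114 CPM. EC markers in the fibroblast-like class summed to 422 CPM in normoxia and 2662 CPM in hypoxia, and their part in these ratios was not tested. In EC-like cells 0 of 36 were at least 2-fold higher and 3 at least 2-fold lower, *Myh10* (21.3 and 7.16 CPM, ratio 0.335, interval 0.179 to 0.587), *Csrp2* (ratio 0.439) and *Ppp1r14a* (ratio 0.422). The lower ones are 8.33% of the list, beside 5.89% over all genes. In general capillary-like EC 3 of 34 were higher, among them *Tpm4* (250 and 621 CPM, ratio 2.49, interval 2.16 to 2.86) and the calponin relative *Cnn2* (ratio 2.11), and 2 were lower, *Myh10* and *Csrp2*, which are 8.82% and 5.88% of the list beside 4.33% and 8.6% over all genes. In aerocyte-like EC 1 of 28 (3.57%, beside 3.65% over all genes) was at least 2-fold higher, *Cnn2*, and *Myh10* had a ratio of 0.332 from 19 and 3 UMIs, with an interval that included 1. The median log2 ratio of the list was 0.06 in fibroblast-like cells, against -0.19 for all genes, and 0.03 in EC-like cells, against 0.01.

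Across the 25 clusters, on log2(CPM + 10), the pairs of members most alike were *Mylk* and *Cald1* (Pearson r = 0.861), *Myl9* and *Tpm2* (r = 0.859), *Tagln* and *Des* (r = 0.796) and *Acta2* and *Tagln* (r = 0.768). Among 5773 other genes with at least 200 UMIs, those most like *Tagln* and *Des* were led by *Tbx4* (r = 0.817 and 0.828), those most like *Mylk* by *Ryk* (r = 0.819), those most like *Tpm1* by *Dstn*, an actin-severing protein (r = 0.854), and those most like *Cald1* by *Lgalsl* (r = 0.858). The clusters share 2 libraries and differ in depth, so these values describe likeness of pattern and carry no p-value.

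The filters removed 30.2% of the contractile UMIs of normoxia and 28.1% of those of hypoxia. Of the UMIs of all genes, 5173361 of 7630683 were kept in normoxia and 2294966 of 2685345 in hypoxia. The contractile share removed was thus below the share of all UMIs removed in normoxia and above it in hypoxia. For *Acta2* the filters removed 44 of 148 UMIs in normoxia and 41 of 53 in hypoxia. Over all kept cells the hypoxia/normoxia ratio of *Acta2* was 0.260 (interval 0.130 to 0.474), from 104 and 12 UMIs, and over all barcodes it was 1.02 (interval 0.729 to 1.40). A library-wide level cannot tell fewer cells of a type from less RNA per cell. A single hypoxia cell held 35 of the 53 *Acta2* UMIs. It had 10151 UMIs, 5.83% of them mitochondrial, just over the limit, with 30 *Tagln*, 21 *Myl9*, 15 *Tpm2*, 12 *Myh11*, 28 *Cald1* and 11 *Des* UMIs. It also had 24 *Pdgfrb*, 28 *Cox4i2*, 49 *Higd1b*, 16 *Notch3* and 30 *Aspn* UMIs and none of *Hhip*. Of the SMC markers it had 14 *Mcam* UMIs and none of *Cnn1*. The cell was in no class.

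**Figure D5:**
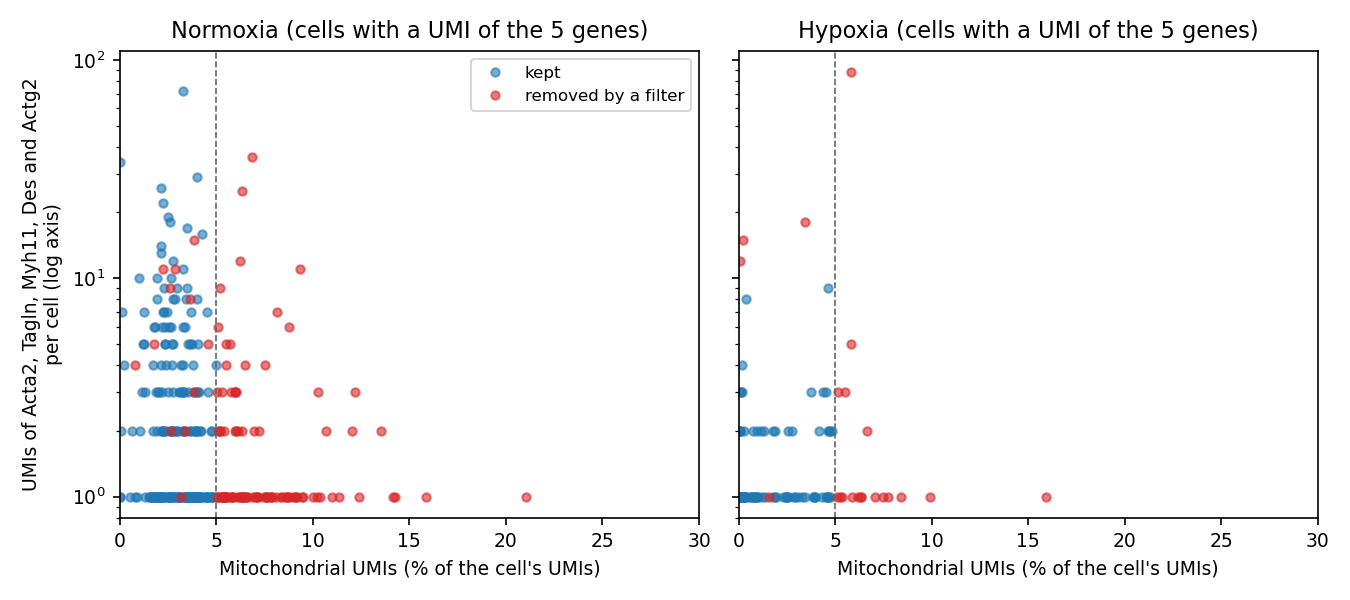
UMIs of *Acta2*, *Tagln*, *Myh11*, *Des* and *Actg2* per cell (y axis, log scale) against the share of mitochondrial UMIs (x axis, %), for cells with at least 1 such UMI in normoxia (left) and hypoxia (right), with the 5% limit dashed, kept cells in blue and removed cells in red. In normoxia 16 kept cells had 10 or more of these UMIs, and in hypoxia all 4 such cells were removed.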

How the data were processed

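Whole lung cells of mice were profiled with the 10x Chromium Next GEM 3′ kit v3.1 in 2 libraries, 1 from normoxia and 1 from hypoxia. The authors deposited filtered matrices of raw UMI counts per gene and cell, made with Cell Ranger 6.1.2 per the file headers and mm10 per the labels, while the study's methods name other versions. Whether intronic reads were counted is not given in the sources used here. The submitters' processing notes also name Seurat. No authors' cell annotation was used here.

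Cells of 200 to 4000 genes and at most 5% mitochondrial UMIs were scaled to 10000 UMIs and clustered with scanpy 1.11.5 (2000 variable genes per library without the contractile genes, 30 principal components, 15 neighbours, Leiden resolution 2, no batch integration), and clusters were named when at least 3 markers were found. Doublets were limited by the upper gene limit alone and no doublet caller was run. UMIs were summed per class and library. The level is per 1000000 UMIs (CPM), with exact Poisson intervals (scipy 1.17.1). Ratios between libraries are given for genes of at least 20 UMIs in a class, and called 2-fold by size only, since 1 library per condition allows no test. The precision of each value is set by its UMIs, from 5173361 kept UMIs in normoxia and 2294966 in hypoxia, and PCR duplicates are removed by UMIs. A count of 0 was bounded at 3 counts. Cells were thinned once, with a fixed seed, to 1000 UMIs for shares.

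Genes were named as the 10 members and, in the list of 46, by membership of the sets called or highest in a class, with the examples chosen after their values were seen. The members, markers and lists were chosen with earlier results of these data known. Scripts were tested on simulated data.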

Additional observations from a re-analysis of the deposited data

Results flagged for a closer look

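The ratio of *Cald1* between hypoxia and normoxia lay on opposite sides of 1 in the capillary EC subtypes. It was 0.813 in aerocyte-like EC (interval 0.656 to 1.00, 321 and 124 UMIs in normoxia and hypoxia) and 1.87 in general capillary-like EC (interval 1.54 to 2.27, 311 and 161 UMIs). The aerocyte-like interval includes 1, so no fall is shown there beyond counting error. The difference was not tested, since each condition has 1 library. General capillary-like EC came from partly different clusters in the libraries and had median depths of 3299 and 1350 UMIs a cell, whereas aerocyte-like EC had 5676 and 4684. Among cells of at least 1000 UMIs the ratio in general capillary-like EC was 1.85, with an interval that excluded 1. That floor does not by itself make the depths or the clusters of the libraries alike, and the part of either in the ratio was not tested.

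Cells outside the comparisons held contractile transcripts. In the 120 hypoxia cells that the filters removed, *Acta2*, *Tagln*, *Myh11*, *Des* and *Actg2* together had 410 CPM (interval 349 to 479, 160 UMIs), against 56.6 CPM (interval 47.3 to 67.3) in the kept hypoxia cells. Removed and kept normoxia cells had 132 CPM (interval 118 to 147) and 154 CPM (interval 144 to 166). These 5 genes were grouped after their values were seen. In hypoxia 4 removed cells held 133 of the 160 UMIs.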

How the results depend on the processing

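No paired analysis was possible because the study holds a single library of normoxia and a single library of hypoxia. Each ratio and level was recomputed under 8 to 15 other settings. The alternatives without marker-bearing cells, with cells of at least 1000 UMIs, with the EC clusters of no subtype name and with clusters holding both libraries were chosen after seeing the data. The last of these was run for fibroblast-like cells only. The hypoxia/normoxia ratio of the sum in general capillary-like EC was 1.52 (interval 1.34 to 1.72) at the main settings, from 438 and 664 CPM in normoxia and hypoxia. Over the alternatives it lay between 1.18 and 1.72, and above 1 beyond counting error in all 14 with an interval. None of these compared the libraries within clusters. Within the *Socs3*-, *Gm26917*- and *Cenpb*-led clusters the ratio of the sum was 0.965 (interval 0.711 to 1.29), 1.38 (0.962 to 2.02) and 1.54 (1.10 to 2.20). The size of the class ratio was less stable, since it lay outside the main interval in 8 of 15 alternatives. It was 1.31 at 10% mitochondrial UMIs, 1.24 with no limit, 1.27 and 1.33 at Leiden resolutions 1 and 3, 1.26 with the contractile genes in the clustering, 1.18 with each library clustered alone, 1.72 without cells bearing mural or fibroblast markers and 1.26 with the EC clusters of no subtype name. *Tagln* in this class turned to 0.940 at resolution 1 and 0.974 with those clusters. In fibroblast-like cells the ratio of the sum was 1.12 at a limit of 6000 genes, 1.20 at 10% mitochondrial UMIs, 1.17 with no limit and 0.673 with median-ratio scaling. In all EC-like cells it was 1.27 as a mean over cells and 1.20 without marker-bearing cells, and its interval excluded 1 in 7 of 13 alternatives. In aerocyte-like EC it was 0.765 with marker gates. The cause of these shifts was not tested. The *Hhip*-positive level was 3990 CPM with marker gates and 3847 CPM without the richest cell. The *Cald1* ratio in EC-like cells stayed between 1.26 and 1.39 and that of *Mylk* between 0.664 and 0.828, each with intervals excluding 1 in 13 of 13 alternatives. None of these alternatives compared EC-like cells within clusters holding both libraries. In fibroblast-like cells the *Mylk* interval excluded 1 in 9 of 14, and in aerocyte-like EC the *Cald1* interval in 5 of 13. The *Hhip*-positive share of *Acta2* UMIs was 52.7% to 62.5%. Of 352 values for single genes, 321 lay within the interval of the reported value, 29 outside it and 2, both of *Tagln* in general capillary-like EC, on the other side of 1 from a ratio whose interval excluded 1. Counting ratios whose interval included 1 as well, 26 values of 13 ratios lay on the other side of 1. The ratio in arterial-like EC was not run, since no cluster took that name. Depth limits *Actg2*, *Myh11*, *Acta2* and *Tpm2* most, which had 0, 7, 12 and 18 kept hypoxia UMIs.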

Other observations

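Platelet-like cells, 20 in normoxia, carried a contractile set of their own, with *Cald1* (36%), *Myl9* (29.2%) and *Tpm2* (17.4%) making up most of 161 UMIs, and with no *Acta2* or *Myh11* UMI. The 5 platelet-like cells of hypoxia gave a ratio of 0.991 for the sum (interval 0.572 to 1.62). In AT1-like cells *Tpm1* was 44.3% of 106 UMIs, and the sum had a ratio of 1.64 (interval 1.03 to 2.54) from 26 hypoxia UMIs in a class of 10 cells. Without the richest cell of each library the ratio was 1.61 (interval 0.952 to 2.62), and this interval includes 1.

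No cluster was arterial, but single EC-like cells had UMIs of the arterial marker *Gja5*, a gate chosen after seeing the data. The 16 such cells of normoxia had 19 *Tagln* UMIs, 189 CPM (interval 114 to 296), of which 14 lay in 1 cell, against 12.1 CPM in the other EC-like cells. The 11 such cells of hypoxia had 1 *Tagln* UMI, and neither set had an *Acta2* UMI.

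A cell of 765 UMIs in an alveolar fibroblast-like cluster had 16 *Acta2*, 17 *Tagln*, 5 *Tpm2* and 3 *Cnn1* UMIs and none of *Pdgfra* or *Col1a1*. A further 3 removed hypoxia cells with at least 10 UMIs of *Acta2*, *Tagln*, *Myh11*, *Des* and *Actg2* exceeded the limit of 4000 genes and had 32 to 37 *Pdgfra* UMIs each.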
